A study of Caenorhabditis elegans with 4 samples.

Results

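A set of 439 autosomal SDC-1 peaks that coincide with narrow, focal enrichment was examined in ChIP-seq data, in which DNA bound by a protein is immunoprecipitated and sequenced. The members were chosen by position and by measured peak width: a peak of the authors' whole-series list was taken when it lay on an autosome, overlapped by at least 1 bp a peak called in ChIP replicate 2 that was at most 1000 bp wide, and overlapped no wider replicate 2 peak. The 439 peaks, called narrow-site peaks from here on, made up 32.5% of the 1352 whole-series peaks and 45.5% of the 964 autosomal ones. The other autosomal peaks lay in replicate 2 regions wider than 1000 bp (221 peaks, called broad-region peaks) or at no replicate 2 peak (304 peaks). The material was mixed-stage embryos of the wild-type C. elegans strain N2, from a population of males and hermaphrodites kept at 20 °C. A rabbit polyclonal antibody to SDC-1, SDQ3856, was used in 2 ChIP samples. The 2 input samples were not analysed here. All samples share strain, genotype and stage, so there is 1 condition. The labels do not state whether separate embryo collections were used, so the spread between the replicates may be technical.

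SDC-1 is a zinc-finger protein that acts with SDC-2 and SDC-3 in sex determination and dosage compensation. In hermaphrodites these proteins bring a condensin complex to recruitment sites on X, from which it spreads and lowers X transcription. The SDC proteins also have a known autosomal target, the male-determining gene her-1 on chromosome V, which they repress in hermaphrodites. A narrow ChIP-seq peak is what a factor held at a point on the DNA usually gives, while broad regions cover kilobases. Whole embryos were used, so strong binding in few cells and weak binding in many cannot be told apart. The peaks are given by position in the build of the files, WormBase WS220, and no gene is assigned to them, because an annotation of that build was not used here.

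Each value below comes from a list of peaks, and read depth is unknown. The score is the authors' own value for each peak. Its definition is not given, and the whole-series list and the replicate lists use different scales, so levels are compared within a list only. Replicate 1 had 530 peaks with scores from 50.3 upward, and replicate 2 had 1160 with scores from 50.08 upward. Intervals are exact 95% intervals (Clopper-Pearson for shares, order statistics for medians) that cover counting error alone and take each peak as independent. Peaks are not replicates of a condition, so groups of peaks are described and not tested. The rule used the whole-series list and the widths of replicate 2. Replicate 1 was not used by the rule directly, although how the authors combined the replicates in the whole-series list is not given.

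The median whole-series width of the narrow-site peaks was 305 bp (interval 286 to 318), and 50% of them lay between 223.5 and 397.5 bp. That median was above the 251.5 bp of all autosomal whole-series peaks and the 185 bp of those with no replicate 2 peak. It was below the 356 bp of broad-region peaks (interval 320 to 404) and the 330 bp of peaks at narrow replicate 2 sites on X (interval 314 to 357). The overlapping replicate 2 peaks, whose width the rule limits, had a median of 528 bp and ran from 208 to 986 bp. The whole-series peak covered a median of 64% of the replicate 2 width, and 341 of the 439 lay wholly inside the replicate 2 peak. However, 23 members were wider than their replicate 2 peak. The widest member, III 317710 to 319080, was 1371 bp wide over a replicate 2 peak of 346 bp, with a whole-series score of 3.31 and no replicate 1 peak. The centres of whole-series and replicate peaks were mostly close. The whole-series centre lay a median of 36 bp from the centre of the replicate 2 peak and a median of 30 bp from that of the replicate 1 peak where there was one. It was within 100 bp in 371 of 439 peaks for replicate 2 and in 172 of 181 for replicate 1. Most narrow-site peaks had a replicate 2 peak of their own, and 24 shared 12 replicate 2 peaks in pairs. A further pair, V 5004513 to 5004829 and V 5004986 to 5005318, shared a replicate 2 peak, and the first of them also overlapped another. The sites were thus 429 distinct replicate 2 peaks, out of 716 narrow replicate 2 peaks on the autosomes. The 287 narrow replicate 2 peaks with no whole-series peak had a median replicate 2 score of 70.6, against 149 for the 429 that had one.

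Where replicate 1 had a peak, the narrow sites of replicate 2 were narrow in replicate 1 too. Of the 439 peaks, 181 overlapped a replicate 1 peak, and in all 181 that replicate 1 peak was at most 1000 bp wide (100%, interval 98 to 100%). Among all autosomal whole-series peaks with a replicate 1 peak the share was 61.4%, and among broad-region peaks it was 19.9% (33 of 166, interval 14.1 to 26.8%). The replicate 1 width at narrow sites had a median of 455 bp, with a range of 154 to 933 bp. At broad-region peaks the median was 2279 bp and the highest 7189 bp. Broad-region values count a replicate peak once for each whole-series peak on it, so 1 wide region can enter several times. Across the 181 narrow-site peaks, the widths in both replicates ranked alike (Spearman's rho 0.71, Pearson's r of log10 widths 0.72, as a description across peaks of the same 2 libraries). The whole-series peaks at narrow replicate 2 sites on X gave the same picture, with 86 of 86 replicate 1 peaks at most 1000 bp wide.

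**Figure D1:**
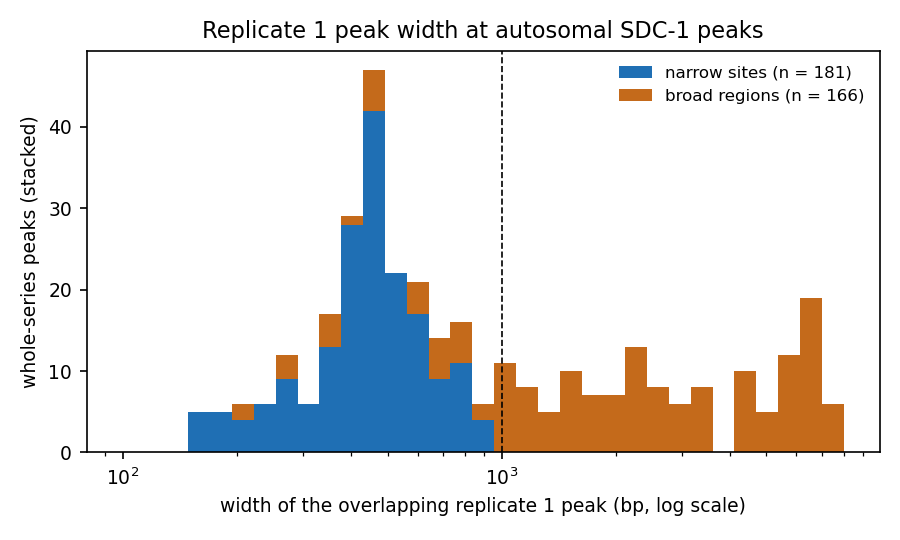
Width of the replicate 1 peak (bp, log axis) at autosomal whole-series peaks, stacked by the class that replicate 2 gave them, with a dashed line at 1000 bp. All 181 narrow-site peaks with a replicate 1 peak lie left of the line, and 133 of 166 broad-region peaks lie right of it.

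The limit of 1000 bp did not fall in a gap between width classes. In steps of 100 bp from 800 bp up, 22 and 15 autosomal whole-series peaks had their widest replicate 2 peak below the limit, and 10 and 21 above it. The members closest to the limit were V 15321815 to 15322007, with a replicate 2 width of 986 bp, I 3171738 to 3172260 with 984 bp and IV 4921599 to 4922070 with 977 bp. Their whole-series scores were 3.05, 11.3 and 8.68, and their replicate 2 scores were 278, 601 and 461. The peak on V had no replicate 1 peak, and the other replicate 1 scores were 155 on I and 53.5 on IV. Another member, IV 14033749 to 14034407, also had a replicate 2 width of 977 bp and came later by position alone. It scored far higher, with 42 in the whole series, 244 in replicate 1 and 745 in replicate 2. Just over the limit were IV 16095251 to 16095435 at 1019 bp, IV 8331036 to 8331338 at 1031 bp and I 281754 to 282177 at 1032 bp. These had whole-series scores of 4.1, 3.83 and 3.53, replicate 2 scores of 147, 177 and 304, and no replicate 1 peak. The whole-series scores just over the limit lay within the range of those just under it, while 2 of the 3 replicate 2 scores just over it lay below that range.

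The whole-series scores of narrow-site peaks spread over nearly the full autosomal range, from 1.42 to 127.42, with a median of 11.8 (interval 10.6 to 13.4). The median was 5.23 for broad-region peaks, 4.28 for autosomal peaks with no replicate 2 peak and 23.3 for peaks at narrow replicate 2 sites on X. The order in replicate 2 was another. Its scores had a median of 149 at narrow sites (interval 133 to 164), 790 in broad regions (interval 620 to 861) and 247 at narrow X sites (interval 172 to 298). In replicate 1, where a peak was present, the medians were 153 (interval 131 to 181), 349 (interval 313 to 384) and 183 (interval 139 to 241) in that order. Broad-region peaks were therefore below narrow-site peaks by whole-series score and above them by the scores of both replicates. Of the broad-region peaks, 84.6% had another whole-series peak within 1000 bp, and such neighbours can carry the score of the same replicate peak. The broad-region replicate medians and their intervals are thus per whole-series peak and not per region.

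**Figure D2:**
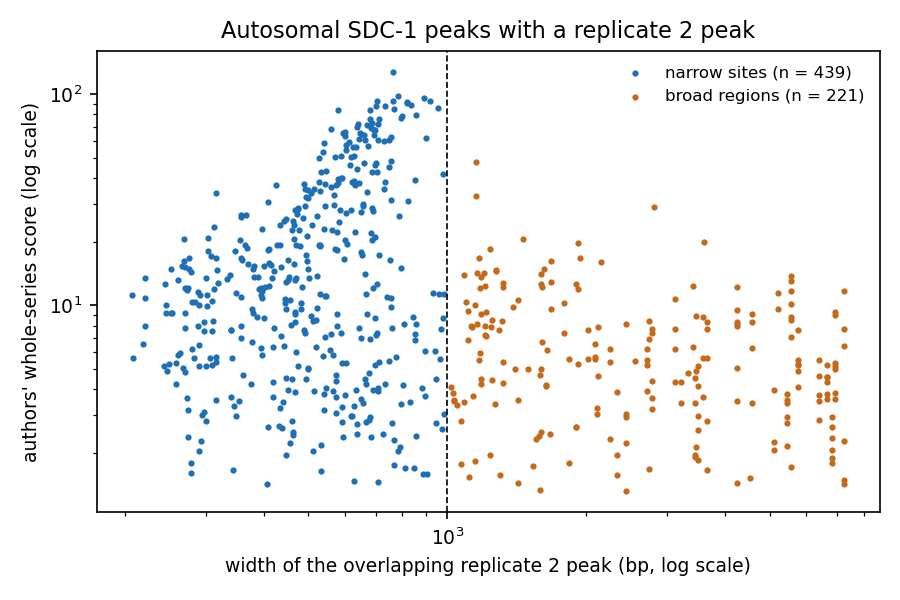
Whole-series score (log axis) against the width of the widest overlapping replicate 2 peak (bp, log axis) for autosomal peaks, with a dashed line at the limit of 1000 bp. The highest broad-region score is 47.6, the highest narrow-site score is 127.42, and among narrow sites wider than 600 bp high and low scores both occur.

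Within the narrow sites, whole-series score and replicate 2 width did not follow a single course. Score and width of the same list rose together, with a Spearman's rho of 0.62 in the whole series and 0.67 in replicate 2 (439 peaks each). In replicate 1 it was 0.58 (181 peaks). The median whole-series score was 9.76 where the replicate 2 peak was up to 400 bp wide (120 peaks), 13.4 between 400 and 600 bp (157 peaks), 27.7 between 600 and 800 bp (125 peaks) and 7.72 between 800 and 1000 bp (37 peaks). The 162 peaks over 600 bp divided into 68 with a score of at least 30, 66 with a score below 10 and 28 between those values. The high-scoring 68 had a median replicate 2 width of 698 bp and a median whole-series width of 448 bp, and the whole-series peak covered a median of 65.3% of the replicate 2 width, taken peak by peak. The low-scoring 66 had a median replicate 2 width of 741 bp and a median whole-series width of 221.5 bp, and the median of the same percentage was 32.2%. A replicate 1 peak was present at 67 of the 68 (98.5%, interval 92.1 to 100%) and at 25 of the 66 (37.9%, interval 26.2 to 50.7%). Where present, the replicate 1 peak had a median width of 485 bp in the first group and 682 bp in the second. The median replicate 2 score was 740 in the first group and 148 in the second. These score bands were chosen after the values were seen.

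The 3 highest-scoring peaks of each autosome are given next. Each of the 15 had a peak in replicate 1, and a replicate 2 peak is given by the rule for every member. On II, the highest whole-series score of all members, 127.42, belonged to the peak from 12550852 to 12551386, with scores of 755 in replicate 1 and 1461 in replicate 2. The next, from 7200018 to 7200552, scored 98.1 in the whole series, 642 in replicate 1 and 1965 in replicate 2. The third on II, from 5104911 to 5105484, scored 88.8, with 522 and 1263 in the replicates. The first of these was 1st of II by whole-series and replicate 1 score, while the peak at 7200018 was above it in replicate 2.

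On III, the peak from 5031244 to 5031853 scored 95.7 in the whole series, 809 in replicate 1 and 1987 in replicate 2, the highest replicate 2 score of any member. The peak from 10989357 to 10989999 had 91.3 in the whole series, with 647 and 1425 in the replicates. The peak from 4369280 to 4369850 had 90.9, with 950 and 1786 in the replicates. A neighbour 8662 bp away, from 4378513 to 4379252, scored 85.7 in the whole series, and its 1032 in replicate 1 was the highest replicate 1 score of any member, with 1837 in replicate 2. The 3 highest replicate 1 scores of all members were these of the pair at 4369280 and 4378513 and of the peak at 5031244, all on III.

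On I, the peak from 13463776 to 13464252 scored 92.8 in the whole series, with 329 in replicate 1 and 1304 in replicate 2. The peak from 8224211 to 8224663 followed with 75.9, and with 378 and 1194 in the replicates. The peak from 6212626 to 6213073 had 72.3, with 243 and 789. Replicate 1 scores of all 3 were below the lowest replicate 1 score of the 3 named on II.

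On IV, the peak from 8926988 to 8927626 scored 92.2 in the whole series, with 422 in replicate 1 and 1096 in replicate 2. The peak from 8375255 to 8375732 had 87.9, with 681 and 1478, and the peak from 11025819 to 11026416 had 78.9, with 778 and 1205. On V, the peak from 12303377 to 12303824 had 92.8, with 695 in replicate 1 and 998 in replicate 2. The peak from 7647000 to 7647522 had 84.6, with 577 and 1449, and the peak from 15190845 to 15191256 had 84.2, with 398 and 862. On IV the whole-series order of the 3 was the reverse of their replicate 1 order. Replicate 1 widths of the 15 peaks were between 472 and 678 bp. Their replicate 2 widths, which the rule limits, were between 679 and 916 bp.

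The lists shared much of their top ranks. Of the 10 highest members by whole-series score, 7 were also in the 10 highest by replicate 1 score and 6 in the 10 highest by replicate 2 score, and 6 were in all 3. Among the 50 highest, 33 were in all 3. Between replicate 1 and replicate 2 alone, 8 of the 10 highest and 34 of the 50 highest were shared. The whole-series list is of the same ChIP samples, so its overlap with the replicate lists is not independent of them. Over the 181 members in both replicates, replicate 1 and replicate 2 scores had a Spearman's rho of 0.70 and a Pearson's r of log10 scores of 0.70, as a description across peaks. By chromosome, rho ran from 0.54 on I (30 peaks) to 0.79 on III (34 peaks). It was 0.40 over 166 broad-region peaks, where neighbours can share replicate scores, and 0.83 over 86 narrow-site peaks on X. With the limit lowered to 500 bp, rho was 0.12 over 33 peaks (interval -0.23 to 0.45).

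**Figure D3:**
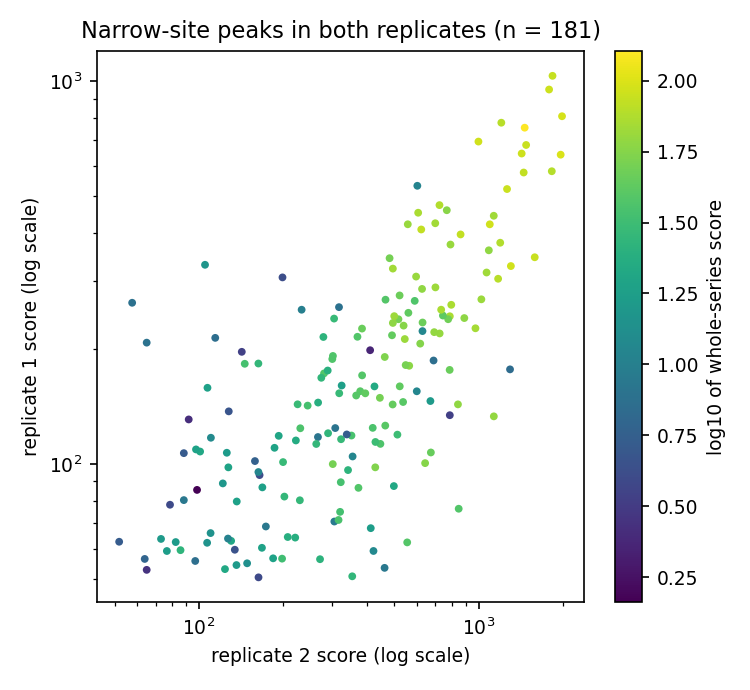
Replicate 1 score against replicate 2 score (log axes) for the 181 narrow-site peaks found in both replicates, coloured by the log10 of the whole-series score. The 3 peaks highest in replicate 1 score between 809 and 1032 there and between 1786 and 1987 in replicate 2.

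The other 258 narrow-site peaks had no peak in replicate 1. Members were therefore in replicate 1 in 41.2% of cases (interval 36.6 to 46%), close to the 37.9% of all 964 autosomal whole-series peaks. That 37.9% joins unlike parts: 75.1% of broad-region peaks (166 of 221) and 5.92% of autosomal peaks with no replicate 2 peak (18 of 304). At narrow X sites it was 45.5% (86 of 189, interval 38.3 to 52.9%). The share was higher at higher replicate 2 scores. Of 68 members with a replicate 2 score below 75, 6 had a replicate 1 peak (8.82%, interval 3.31 to 18.2%). The share was 22.2% at scores from 100 to 150, 58.1% from 200 to 400 and 88.2% from 400 to 800 (60 of 68, interval 78.1 to 94.8%). All 28 members with a replicate 2 score of 800 or more had one (100%, interval 87.7 to 100%). By whole-series score, the share was 13.6% in the lowest 25% of members (15 of 110), 20% and 37.6% in the next classes, and 93.6% in the highest 25% (103 of 110, interval 87.3 to 97.4%). The boundary between the last 2 classes, a whole-series score of about 28.07, follows from the division into classes of 25%, and no threshold was sought.

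**Figure D4:**
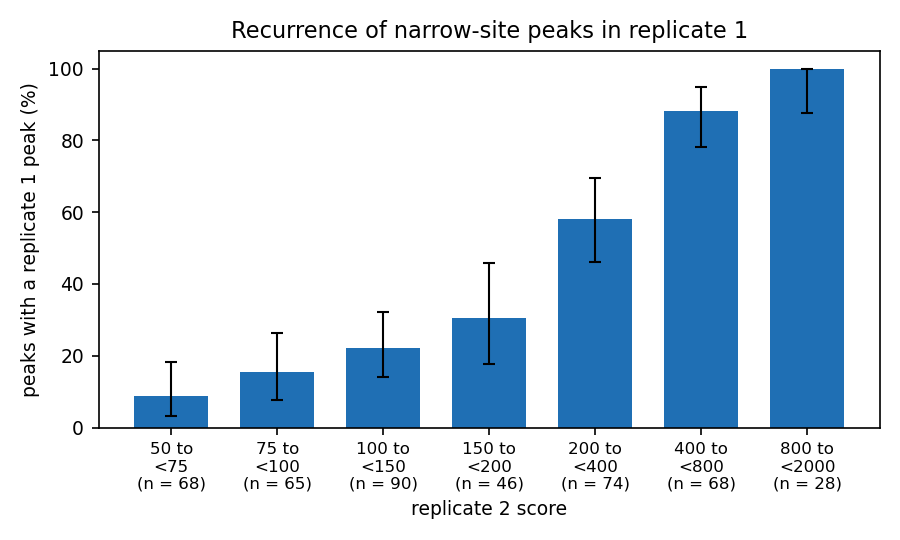
Share of narrow-site peaks that overlap a replicate 1 peak (%), by replicate 2 score, with exact 95% intervals and the number of peaks under each bar. The share goes from 8.82% at scores of 50 to below 75 to 100% at scores of 800 and more.

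Members without a replicate 1 peak had a median whole-series score of 7.56 and none above 37.7, while those with one had a median of 33.2 (interval 27.4 to 38). Their replicate 2 peaks had a median width of 443.5 bp, against 648 bp where replicate 1 had a peak. The 3 highest-scoring members without a replicate 1 peak were II 5292166 to 5292581, III 8650154 to 8650487 and II 5577023 to 5577353. Their whole-series scores were 37.7, 37.1 and 35.2, and their replicate 2 scores were 553, 265 and 373. Each had another whole-series peak between 672 and 2364 bp away.

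At the other end of the range, the lowest-scoring member of each autosome had a whole-series score between 1.42 and 2.03. These were I 4574343 to 4574616 with 2.03, II 9697232 to 9697380 with 1.63, III 415284 to 415649 with 1.45, IV 11239047 to 11239224 with 1.6 and V 8316322 to 8316603 with 1.42. Their replicate 2 scores were 211, 58.5, 98.4, 50.4 and 119 in that order, so that on I a whole-series score near the bottom stood beside a replicate 2 score above the median of the members. The peak on III alone had a replicate 1 peak, with a score of 85.5.

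Some members combined a high replicate 2 score with a low whole-series score. Of the 96 members with a replicate 2 score of at least 400, 82 had a whole-series score at or above the members' median and 14 lay below it. The 14 had a median whole-series score of 6.47 and a median replicate 2 score of 597, and the 82 had medians of 60.4 and 673. The highest replicate 2 score of the 14 was at V 14755676 to 14756059, with a whole-series score of 6.88, 177 in replicate 1 and 1295 in replicate 2. It lay 258 bp from a broad replicate 2 region. Another was IV 1831005 to 1831638, with 10.9 in the whole series, 533 in replicate 1 and 604 in replicate 2. The group, chosen after the values were seen, had wider replicate peaks than the 82, with medians of 895 against 687.5 bp in replicate 2 and 720.5 against 477 bp in replicate 1. None of the 14 lay in the middle 33.3% of its chromosome (interval 0 to 23.2%), against 46 of the 82 (56.1%, interval 44.7 to 67%). The 14 were not all separate sites, although the interval takes them as such. On IV, the pair at 13846234 and 13846554 shared a replicate 2 peak, whose values are the medians of 597 and 895 bp. The pair at 4923832 and 4924147 shared another, with the members at 4921599 and 4926139 close by. A replicate 1 peak was present at 8 of the 14 and 80 of the 82.

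Narrow-site peaks occurred on every autosome. Chromosome I held 61, II 79, III 79, IV 108 and V 112, which is 4.05, 5.21, 5.73, 6.17 and 5.41 peaks per Mb of the length reached by peaks, and 5.34 per Mb over all 5. They made up 37.9% of the whole-series peaks on I (interval 30.4 to 45.9%) and 51.3% on II (interval 43.1 to 59.4%), with the other autosomes between. The chromosomes with the most narrow-site peaks had the lowest median scores. The median whole-series score was 7.63 on V (interval 6.03 to 9.97) and 11.2 on IV (interval 8.38 to 13.4). It was 14.5 on I, 15.4 on II and 16.7 on III (interval 11.7 to 20.5). The interval on IV overlapped those on I, II and III, while that on V lay below them. The highest scores on IV and V, 92.2 and 92.8, were close to the 92.8 on I. The highest-scoring 25% of members took 39.2% of the peaks on II (31 of 79, interval 28.4 to 50.9%) and 16.1% on V (18 of 112, interval 9.81 to 24.2%). A replicate 1 peak was present at 49.2% of the members on I and 49.4% on II, and at 35.2% on IV and 35.7% on V, with intervals that overlap.

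C. elegans autosomes have a gene-rich centre between repeat-rich arms. The middle 33.3% of the autosomes held 163 of the 439 narrow-site peaks (37.1%, interval 32.6 to 41.8%), a share whose interval includes that of length. It also includes the 33.4% of all 964 autosomal whole-series peaks, and the share of broad-region peaks was 30.8% (interval 24.8 to 37.3%). The central share was larger among the strongest members. By whole-series score, the central part held 60 of the 110 members in the highest 25%, or 54.5% (interval 44.8 to 64.1%). Among the remaining 329 members it held 103, or 31.3% (interval 26.3 to 36.6%). In these 3 classes of 25%, from the lowest score up, the share was 37.3%, 26.4% and 30.3%, so it did not rise steadily. By replicate 2 score the shares were 49.1% (interval 39.4 to 58.8%) and 33.1% (interval 28.1 to 38.5%). By replicate 1 score, over the 181 members that have one, they were 57.8% (26 of 45, interval 42.2 to 72.3%) and 40.4% (interval 32.1 to 49.2%), with overlapping intervals. The direction was thus the same by all 3 scores. The scores rise together across members (Spearman's rho 0.64 to 0.70), so these are not independent comparisons. Among members over 600 bp wide in replicate 2, the middle 33.3% held 42 of the 68 with a whole-series score of at least 30 and 20 of the 66 with a score below 10.

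**Figure D5:**
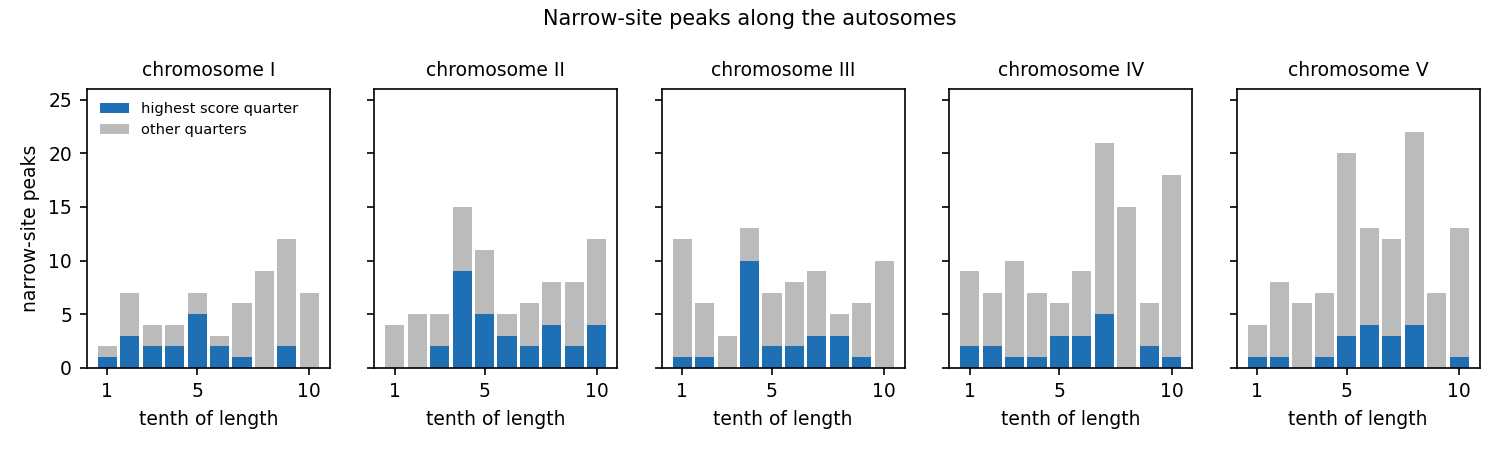
Number of narrow-site peaks in 10 equal parts of each autosome, with the highest 25% by whole-series score in blue and the rest stacked above in grey. On II and III the 4th part holds 9 and 10 of the highest-scoring peaks, more than any other part of those chromosomes.

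Parts of II and III held many of the strongest peaks. When each autosome was divided into 10 equal parts, the 4th part of III held 13 narrow-site peaks, 10 of them in the highest 25%, and the 4th part of II held 15, with 9 in the highest 25%. The part of V with the most members, the 8th, held 22, with 4 in the highest 25%, and the fullest of IV, the 7th, held 21, with 5. These counts were not set against those of all autosomal peaks in the same parts. In fixed stretches of 1 Mb, IV from 11 to 12 Mb held the most members (16, of which 6 had a replicate 1 peak). That stretch held 32 autosomal whole-series peaks in all, so members were near their 45.5% share over the autosomes. Next came II from 5 to 6 Mb with 14 members among 20 autosomal peaks, 9 of the members with a replicate 1 peak. IV from 16 to 17 Mb also had 14 members, among 21 autosomal peaks, and 4 of the members had a replicate 1 peak.

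Most narrow-site peaks had no close neighbour. The nearest other whole-series peak was a median of 18568 bp away (interval 12652 to 22547), and 156 of 439 had one within 5000 bp (35.5%, interval 31.1 to 40.2%). The corresponding share was 90.5% among broad-region peaks (200 of 221, interval 85.8 to 94%) and 31.6% among autosomal peaks with no replicate 2 peak. Over all 964 autosomal whole-series peaks it was 46.9%, and at narrow X sites it was 38.6% (73 of 189, interval 31.6 to 46%). A broad replicate 2 region lay within 5000 bp of 26 members (5.92%, interval 3.9 to 8.56%). Joining members less than 5000 bp apart left 376 sites, of which 325 held a single peak, 42 held 2, 7 held 3, 1 held 4 and 1 held 5. The site with 5 was on IV from 4921599 to 4931074, over 4 replicate 2 peaks, with whole-series scores from 2.76 to 11.3. The site with 4 was on V from 9087546 to 9090280, with scores from 3.68 to 8.68. A neighbour within 5000 bp was found for 25 of 110 members in the highest 25% by whole-series score (22.7%, interval 15.3 to 31.7%) and for 50 of 110 in the lowest 25% (45.5%, interval 35.9 to 55.2%).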

How the data were processed

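The data are peak lists that hold positions and 1 score for each peak. Per the file headers the build is WormBase WS220, and per the files' source column the authors called peaks with MACS on each ChIP sample and with MACS v2 for the whole series. The submitters' processing notes name BWA and ce10. Controls, filters, how replicates were combined and the definition of the deposited score were not given in the sources used here, and read depth is unknown. A site missing from a list is one that was not called there, at a threshold and depth that are not known.

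Each whole-series peak was given the highest score and the largest width among the replicate peaks it overlapped by at least 1 bp. Each chromosome was taken to end where the last peak of the 3 lists ends, which understates its length. The gene table at hand is of another assembly, WBcel235, and was used for gene names alone. The overlap and interval code was tested on simulated data. The members, groups and settings were chosen with earlier results of these data known. Peaks were named by a rule: the 3 highest-scoring and the lowest-scoring member of each autosome, the 3 peaks nearest the width limit on each side, the 3 highest with no replicate 1 peak, and the 3 highest by replicate 1 score. Sites named for a low whole-series beside a high replicate 2 score, and sites with 4 or 5 members, were chosen after their values were seen. A member tied in replicate 2 width with 1 of those named under the limit was also given. So was the member with the widest whole-series peak. Computations used pandas 2.3.3, scipy 1.17.1 and numpy 2.4.6 under Python 3.11.15, and figures used matplotlib 3.10.9.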

Additional observations from a re-analysis of the deposited data

How the results depend on the processing

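Of 49 alternative settings over 7 results, 23 stayed within the interval of the reported value and 26 moved outside it. The share of autosomal peaks at narrow sites (45.5%) became 21.3% with a limit of 500 bp, 54.7% with 2000 bp, 22.7% in the 50% of members with the highest score, 18.8% when a replicate 1 peak was also required, and 23.2% without replicate 2, with the rule applied to the replicate 1 list. The median score (11.8) became 10.5 at 500 bp, 28.1 in the highest 50%, 33.2 with a replicate 1 peak and 25.3 without replicate 2, and the median width (305 bp) became 256, 361, 400 and 391.5 bp in that order. The share with a replicate 1 peak (41.2%) became 16.1% at 500 bp and 65.8% in the highest 50%. The share in the middle 33.3% became 31.7% at 500 bp, 42.5% in the highest 50%, 44.8% with a replicate 1 peak and 42.4% without replicate 2, and the middle 50% held 52.8%. The Spearman correlation between replicate scores became 0.12 at 500 bp and 0.60 at 2000 bp. The share with a neighbour became 43.6% at 2000 bp, 27.6% with a replicate 1 peak, 20.5% at a distance of 1000 bp and 41.9% at 10000 bp. The highest 50% is chosen by score, so its share of autosomal peaks and its median score move by construction. Its width, replicate 1 share and central share are not fixed by that choice. Other distances count other neighbours and the middle 50% is a wider part, so those values move by construction too. The share of autosomal peaks at narrow sites also moves by construction with another width limit or when a replicate 1 peak is required. For the rest the cause was not tested. Requiring 50% overlap, or counting 1 member per replicate 2 peak, moved no result outside its interval. No paired analysis was possible because both ChIP samples are of 1 group and no peaks of the input samples were analysed here. The limits are 2 replicates, an unknown depth and an undefined score.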
